A study of Mus musculus with 13 samples.

Results

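Levels of 9 mouse genes that hold back cell division or answer to p53 were followed through the programming of fibroblasts toward thymic epithelium. They are the Cip/Kip inhibitors Cdkn1a, Cdkn1b and Cdkn1c, the Ink4 inhibitors Cdkn2a, Cdkn2b, Cdkn2c and Cdkn2d, and the p53 target genes Mdm2 and Ccng1. They were chosen by symbol among the 24394 genes of the count table, and all 9 passed the filter on low counts. RNA was sequenced from 13 libraries in 6 groups. Cultures of primary iFoxn1/+ mouse embryonic fibroblasts, which carry an inducible copy of the thymic transcription factor Foxn1, were given a Cre expression plasmid under the Pgk promoter (pPGK-Cre-bpA) by Nucleofection. These induced cells (iTEC) were collected at day 2 (n = 2) and day 10 (n = 3), and at day 12 as Epcam-positive (n = 2) and Epcam-negative cells (n = 2), Epcam being an epithelial surface protein. The references were untreated embryonic fibroblasts of day E13.5 (MEF, n = 2) and thymic epithelial cells of day E15.5 (fetal TEC, n = 2). The genotype field of every sample reads N/A, and 1 protocol text stands under all samples, so which of its steps fetal TEC went through was not given. MEF were labelled as untreated, so the electrical transfer, the plasmid, Cre, Foxn1, the days after transfer and, at day 12, the sort separate iTEC from MEF. These cannot be told apart.

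CDK inhibitors bind the kinases that drive a cell from one phase of its cycle to the next. Cip/Kip proteins act mainly on CDK2 complexes and Ink4 proteins on CDK4 and CDK6, and both keep the retinoblastoma protein active and E2F target genes silent. The transcription factor p53 answers DNA damage and other stress by switching on Cdkn1a, its own ubiquitin ligase Mdm2 and cyclin G1 (Ccng1), while senescent cells, which have left the cycle for good, typically hold high p21 (Cdkn1a) and p16Ink4a (from Cdkn2a). In fibroblasts passaged in culture these are the textbook markers of growth arrest.

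The stretches of promoter that hold p53 half-sites are shown because they separate the members by a feature that expression levels did not choose. RefSeq windows of the 250 bases before each start (GRCm38.p6) were found for 8 of the 9 genes, 11 windows in all, and not for Cdkn1c. A full match to the p53 half-site consensus, which is 10 bases long and was searched on both strands, occurred in 4 of the 11 windows, against 7.13% of all 32851 windows. These windows belong to 4 members, and the members were chosen in part as p53 targets. Of the 8 genes with a window, Cdkn1a held a pair of half-sites and the other 7 did not. Its half-sites lay 12 bases apart in the window of its upstream start (29090729 to 29090978), at bases 73 to 42 before that start. The window of its downstream start (29093519 to 29093768) held 0 half-sites. Pairs with at most 13 bases between them occurred in 0.0639% of all windows. The half-sites stand in capitals in the following stretches, each written 5′ to 3′ on the strand of its gene.
Cdkn1a (chr17:29090876-29090967, plus strand): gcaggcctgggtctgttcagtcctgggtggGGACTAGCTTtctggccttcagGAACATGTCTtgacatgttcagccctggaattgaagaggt
Mdm2 (chr10:117710905-117710974, minus strand): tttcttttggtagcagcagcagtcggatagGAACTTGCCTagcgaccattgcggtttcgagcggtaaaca
Ccng1 (chr11:40755432-40755501, minus strand): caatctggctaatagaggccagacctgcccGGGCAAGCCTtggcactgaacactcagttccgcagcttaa
Cdkn2d (chr9:21291272-21291341, minus strand): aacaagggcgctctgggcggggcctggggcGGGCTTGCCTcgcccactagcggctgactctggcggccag
The letters GACGC, the core of the sequence that Foxn1 binds, were found on either strand in 4 of the 11 windows (of Cdkn1a, Cdkn2a, Cdkn2b and Mdm2), against 22.6% of all windows. Of these matches 0 overlapped a half-site, but only the Mdm2 window held both, so an overlap could occur only there. A match of letters is a description and not a site. Windows without one say nothing of elements farther away, such as p53 elements in the first introns of Mdm2 and Ccng1.

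Libraries held 35805780 to 86465460 counts. In 10 of them the level of a gene rose with its exon length to a like degree (Spearman's rho 0.29 to 0.336 across 16362 genes, which are not independent), while in Epcam-positive replicate 2 and in both fetal TEC libraries rho was 0.00076, -0.019 and -0.062, so that reads of long transcripts are scarce in these 3. Xist counts were high in MEF and Epcam-negative cells (688 to 2480 CPM) and Y-linked genes were high in day 2, day 10 and Epcam-positive cells (65.6 to 302 CPM summed over 4 genes), so the sex of the source embryos and the programming cannot be told apart in comparisons across these sides. Fetal TEC had 41.6 and 42.3 CPM of Y-linked genes and 6.17 and 10.6 CPM of Xist, so their comparison with MEF, where Y-linked genes were at 0, also crosses sex. Day 10 against day 2 and Epcam-negative cells against MEF stay within a side. Summed levels of 12 macrophage genes were 2980 and 3110 CPM in MEF, 218 and 76.5 CPM in Epcam-positive cells, 11.8 to 18.1 CPM in all day 2, day 10 and Epcam-negative libraries, and 519 and 551 CPM in fetal TEC. Their part in the differences from MEF was not tested. Epcam and 9 other epithelial genes summed to 16300 and 27600 CPM in fetal TEC, against 0.926 and 1.26 CPM in MEF, and 10 fibroblast genes to 63800 and 69500 CPM in MEF. In Epcam-positive replicates 1 and 2 the epithelial sums were 2710 and 24800 CPM and the fibroblast sums 33200 and 2970 CPM, so these libraries differ in the markers of the sort.

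Levels are CPM, counts scaled to a common library size with TMM factors, as mean ± SD where averaged. Neighbours in mean level differ beyond their spread where libraries do not overlap and the gap of means is at least the SDs summed. That rule is a description and not a test. Changes are log2 ± standard error from edgeR's quasi-likelihood fit of all 13 libraries, with p adjusted by Benjamini-Hochberg over 17004 tested genes and a call at an adjusted p under 0.05. Because the 2 Epcam-positive libraries lie far apart and all groups share an estimate of spread, the same test was also run on the 10 libraries with a like length profile (16300 genes tested), and both are given. Whether the replicates are independent cultures or embryos was not stated, so p-values may measure technical spread only. Comparisons against MEF share the same 2 MEF libraries. In bulk samples, fewer cells that express a gene and less of its RNA per cell cannot be told apart.

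At day 2, 1 of the 9 genes was called against MEF, where 5.52% of all tested genes were called (2.87% higher and 2.65% lower), and it was Cdkn1c, lower. At day 10, 1 of 9 was called against MEF (Cdkn1c, lower), beside 16% of all genes (9.42% higher and 6.58% lower), and 2 of 9 against day 2 (Cdkn1c higher and Mdm2 lower), beside 12.6% of all genes (8.24% higher and 4.41% lower). Cdkn1a, the gene of p21, stood above MEF in every day 10 and day 12 library without a call in the fit of 13 libraries, and libraries of Cdkn2a, the gene of p16Ink4a and p19Arf, overlapped those of MEF at every day. With 10 libraries 4 of 9 genes were called at day 2 against MEF, 1 higher and 3 lower, beside 39.5% of all genes (20.3% higher and 19.2% lower). At day 10, 5 of 9 were called against MEF, beside 56.6% (29.4% higher and 27.3% lower), and 5 of 9 against day 2, beside 51.4% (27.2% higher and 24.2% lower). These shares are close to those of all genes.

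**Figure D1:**
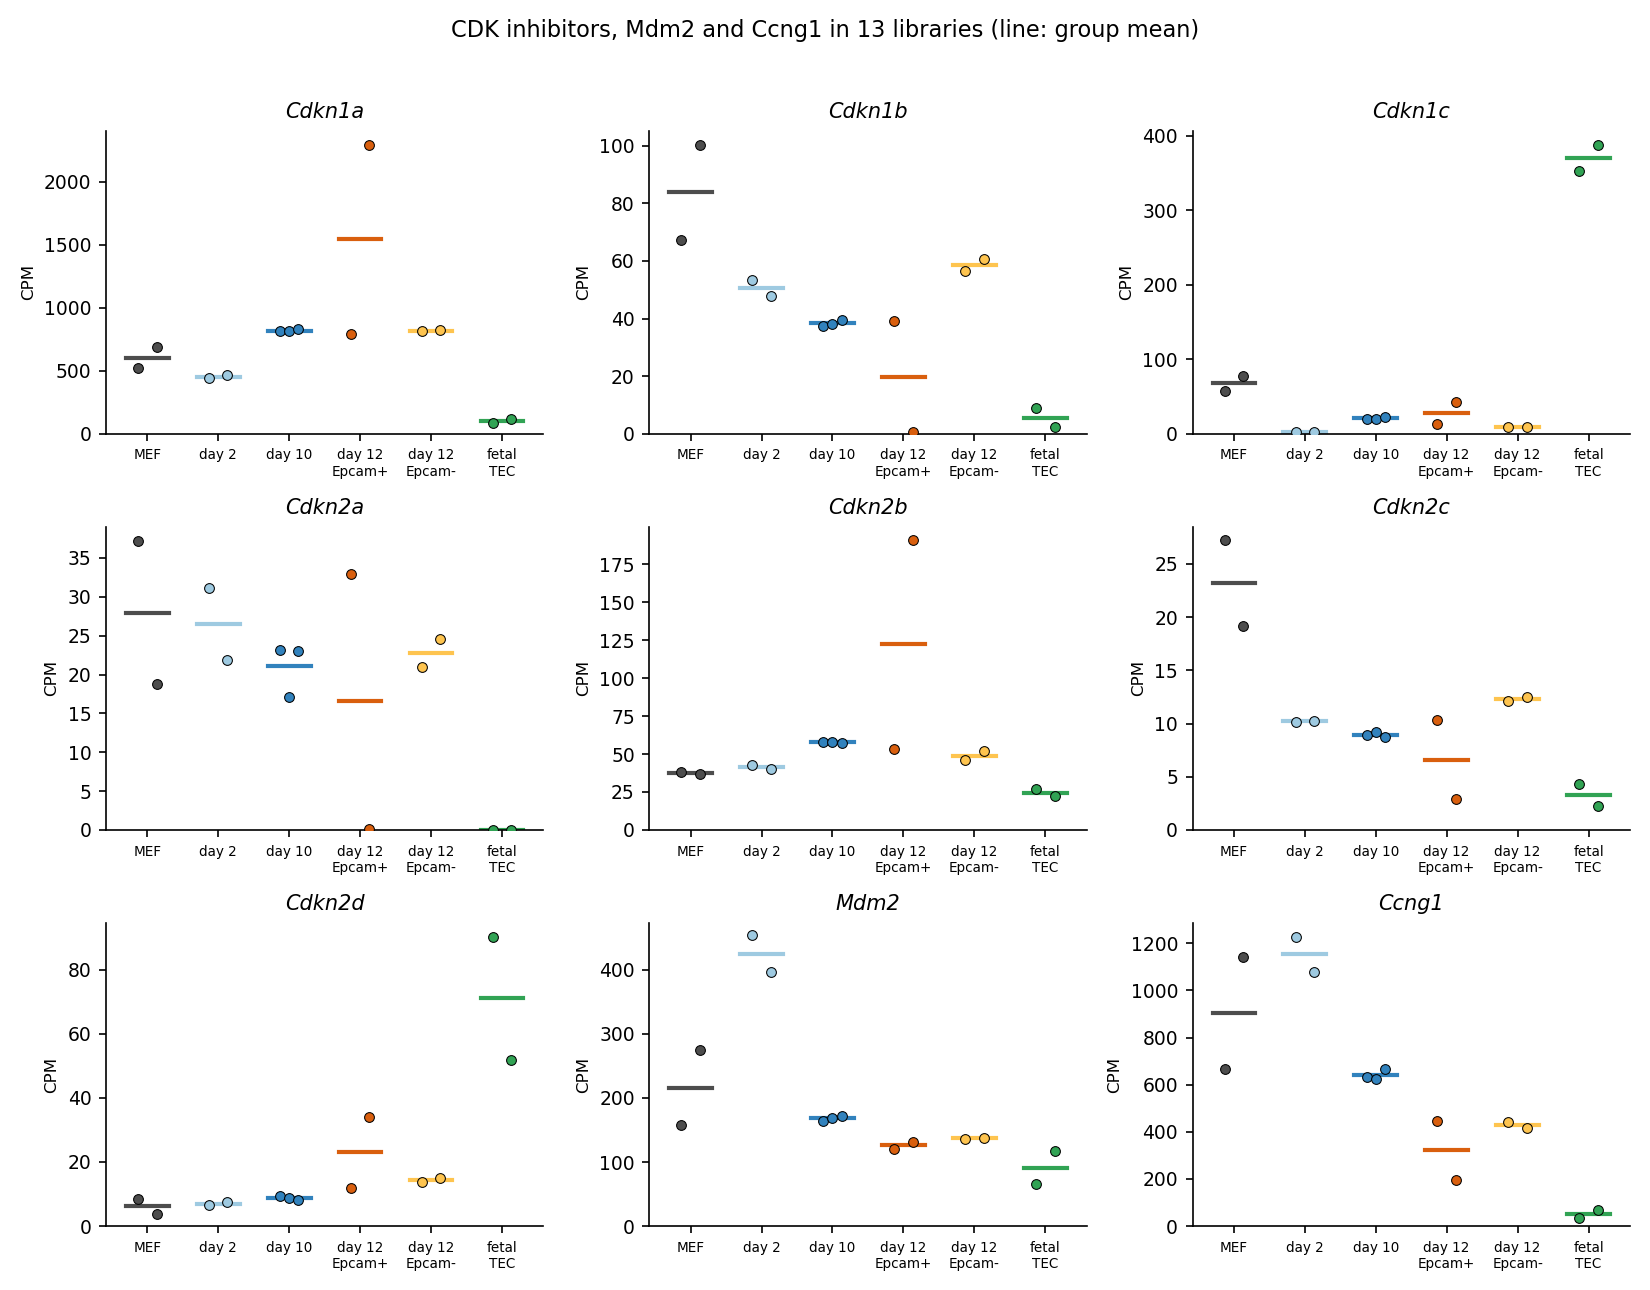
Levels of the 9 genes in CPM on linear axes from 0, 1 point per library and a line at the mean of each group, by group. Cdkn1c is lowest at day 2 (2.26 and 2.45 CPM) and highest in fetal TEC (352 and 388 CPM), Mdm2 is highest at day 2 (397 and 454 CPM), and Epcam-positive libraries lie far apart for Cdkn1a, Cdkn1b, Cdkn2a and Cdkn2b.

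Cdkn1a (chromosome 17, 29090976 to 29100727, plus strand, GRCm38) encodes p21, the inhibitor that p53 induces. It had 520.3 and 690.2 CPM in MEF, 439.9 and 470.3 CPM at day 2, 815, 817 and 828.5 CPM at day 10, 792 and 2296 CPM in Epcam-positive cells, 813 and 827 CPM in Epcam-negative cells, and 84.5 and 116 CPM in fetal TEC. Day 2 libraries lay below both MEF libraries, all day 10 and day 12 libraries lay above them, and fetal TEC lay lowest with no overlap. The log2 change was -0.41 ± 0.43 at day 2 against MEF (adjusted p = 0.769, edgeR), 0.44 ± 0.40 at day 10 against MEF (adjusted p = 0.536) and 0.85 ± 0.41 at day 10 against day 2 (adjusted p = 0.23). With 10 libraries it was called higher at day 10 against MEF (0.47, adjusted p = 0.017) and against day 2 (0.81, adjusted p = 0.0014), and not called at day 2 against MEF (-0.34, adjusted p = 0.0941). In order of mean level, Epcam-positive, day 10 and Epcam-negative cells did not differ beyond their spread. MEF, day 2 and fetal TEC followed, each lower than the group before beyond spread, though neither fit called day 2 against MEF. Exons of Cdkn1a share 273 bases with a gene on the opposite strand, AC167363.2, and how strand was counted was not given.

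Cdkn1b (chromosome 6, 134920401 to 134925513, plus strand) encodes p27, which accumulates in many cells that leave the cycle. It had 67.4 and 100.2 CPM in MEF, 53.5 and 47.7 CPM at day 2, 37.3, 38.3 and 39.6 CPM at day 10, 39.1 and 0.565 CPM in Epcam-positive cells, 56.4 and 60.55 CPM in Epcam-negative cells, and 8.87 and 2.35 CPM in fetal TEC. All induced libraries lay below both MEF libraries. The change at day 10 against MEF was -1.13 ± 1.08 (adjusted p = 0.556, edgeR), and -1.10 (adjusted p = 0.000838) in the fit of 10 libraries, which also called it lower at day 2 (-0.66, adjusted p = 0.0236). With 4552 exon bases over all its transcripts this is the longest of the 9 genes. Its single transcripts have 1757, 2393 and 4552 bases, and which of them were present was not measured. The lowest Cdkn1b values stand in the 3 libraries short of reads from long transcripts. Cdkn2a, the shortest with 1172 exon bases, also has its lowest values in these 3 libraries, and the part of length in either was not tested. In the order MEF, Epcam-negative, day 2, day 10, Epcam-positive and fetal TEC, the first pair and the last 2 pairs of neighbours did not differ beyond their spread.

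Cdkn1c (chromosome 7, 143458339 to 143461050, minus strand) encodes p57, an inhibitor from an imprinted locus that restrains growth of the embryo. It had 57.9 and 78.2 CPM in MEF, 2.45 and 2.26 CPM at day 2, 19.9, 19.9 and 23.1 CPM at day 10, 13.4 and 43.4 CPM in Epcam-positive cells, 9.15 and 9.2 CPM in Epcam-negative cells, and 352 and 388 CPM in fetal TEC. No library of day 2 or day 10 overlapped MEF, and day 2 was lowest of the 6 groups. Cdkn1c fell to 2.355 ± 0.13 CPM at day 2, against 68.1 ± 14.35 CPM in MEF (SD, n = 2 each; log2 change -4.85 ± 0.53, adjusted p = 0.000859, edgeR), and this call held with each of the 13 libraries left out (adjusted p up to 0.0207). At day 10 it stood at 20.98 ± 1.83 CPM (n = 3), higher than at day 2 (3.155 ± 0.47, adjusted p = 0.00249) and lower than in MEF (-1.70 ± 0.40, adjusted p = 0.0198). The call against MEF at day 10 was lost without any library of MEF or of day 10 (adjusted p 0.0522 to 0.142) and with the replicate number as a block (adjusted p = 0.0788). With 10 libraries the 3 changes were -4.785, 3.12 and -1.67, all called. Exons of Cdkn1c share 589 bases with the antisense gene Gm44732, and macrophage genes moved with the difference from MEF, as given above.

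Of the Ink4 genes, Cdkn2a (chromosome 4, 89274471 to 89294653, minus strand) encodes p16Ink4a and, in another frame, p19Arf, which protects p53 from Mdm2. The table counts both transcripts in 1 row, so they cannot be told apart. It had 37.15 and 18.8 CPM in MEF, 31.1 and 21.8 CPM at day 2, 23.1, 17.1 and 23.0 CPM at day 10, 32.9 and 0.128 CPM in Epcam-positive cells, 20.9 and 24.55 CPM in Epcam-negative cells, and 0 CPM in both fetal TEC libraries. Libraries of all induced groups overlapped those of MEF. The change was -0.08 ± 1.41 at day 2 and -0.41 ± 1.28 at day 10 against MEF (adjusted p = 1 and 0.909, edgeR), with signs that turned over when MEF replicate 1 was left out (0.50 and 0.14). Cdkn2a was called neither at day 2 nor at day 10 in the fit of 10 libraries (adjusted p = 1 and 0.304). From MEF, the highest, through day 2, Epcam-negative, day 10 and Epcam-positive cells to fetal TEC, none of the 5 pairs of neighbours differed beyond their spread.

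Cdkn2b (chromosome 4, 89306299 to 89311039, minus strand), 11645 bases from Cdkn2a, encodes p15Ink4b, an inhibitor that TGF-beta induces in epithelial cells. It had 37.9 and 36.7 CPM in MEF, 42.8 and 39.9 CPM at day 2, 57.7, 58.2 and 57.0 CPM at day 10, 53.1 and 191 CPM in Epcam-positive cells, 45.75 and 51.85 CPM in Epcam-negative cells, and 27.2 and 22.05 CPM in fetal TEC. Every induced library lay above both MEF libraries, by little at day 2. The change at day 10 against MEF was 0.63 ± 0.44 (adjusted p = 0.391, edgeR), and 0.66 (adjusted p = 0.000894) in the fit of 10 libraries, which also called it higher at day 10 than at day 2 (0.44, adjusted p = 0.00721). Only Epcam-positive cells and day 10 were neighbours whose libraries overlapped in the order Epcam-positive, day 10, Epcam-negative, day 2, MEF and fetal TEC.

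Cdkn2c (chromosome 4, 109660876 to 109667189, minus strand) encodes p18Ink4c. It had 27.2 and 19.2 CPM in MEF, 10.2 and 10.3 CPM at day 2, 8.9, 9.225 and 8.77 CPM at day 10, 10.35 and 2.88 CPM in Epcam-positive cells, 12.1 and 12.5 CPM in Epcam-negative cells, and 4.27 and 2.27 CPM in fetal TEC. All other libraries lay below both MEF libraries. The change against MEF was -1.18 ± 0.57 at day 2 (adjusted p = 0.327, edgeR) and -1.37 ± 0.50 at day 10 (adjusted p = 0.0985). Both were called with 10 libraries (-1.11, adjusted p = 0.00147, and -1.34, adjusted p = 0.000177), as they were in the fit of 13 when either Epcam-positive library was left out (adjusted p 0.0263 and 0.028 at day 2, 0.00441 and 0.00472 at day 10). Day 10 and Epcam-positive cells, and Epcam-positive cells and fetal TEC, did not differ beyond their spread.

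Cdkn2d (chromosome 9, 21288410 to 21291407, minus strand) encodes p19Ink4d. It had 8.46 and 3.91 CPM in MEF, 6.58 and 7.48 CPM at day 2, 9.41, 8.79 and 8.17 CPM at day 10, 12.0 and 34.0 CPM in Epcam-positive cells, 13.85 and 14.9 CPM in Epcam-negative cells, and 90.2 and 51.8 CPM in fetal TEC. MEF libraries overlapped those of day 2 and day 10 and lay below those of both day 12 groups. The change at day 10 against MEF was 0.51 ± 0.49 (adjusted p = 0.558, edgeR), with no call in the fit of 10 libraries (adjusted p = 0.145). The wide MEF pair limits what can be seen of this gene.

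Mean levels of both p53 target genes were highest at day 2. Mdm2 (chromosome 10, 117688875 to 117710758, minus strand), the ligase that p53 induces and that marks p53 for destruction, had 158 and 275 CPM in MEF, 454 and 397 CPM at day 2, 164, 169 and 172 CPM at day 10, 120.2 and 131 CPM in Epcam-positive cells, 136 and 138 CPM in Epcam-negative cells, and 65.0 and 117 CPM in fetal TEC. Both day 2 libraries lay above all others, and day 10 lay within the MEF range. Mdm2 fell to 168 ± 3.86 CPM at day 10 (n = 3), against 425.5 ± 40.2 CPM at day 2 (n = 2), a log2 change of -1.34 ± 0.31 (adjusted p = 0.0199, edgeR). This call was lost without any library of day 2 or day 10 (adjusted p 0.0742 to 0.164) and with the replicate number as a block (adjusted p = 0.0885), and stood in the fit of 10 libraries (-1.38, adjusted p = 0.000893). Against MEF the change at day 2 was 0.98 ± 0.35 (adjusted p = 0.157), and 1.045 (adjusted p = 0.009) in the fit of 10 libraries. In its order, MEF and day 10, and Epcam-positive cells and fetal TEC, did not differ beyond their spread.

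Ccng1 (chromosome 11, 40748552 to 40755311, minus strand) encodes cyclin G1, a p53 target that recruits a phosphatase to Mdm2. It had 668 and 1140 CPM in MEF, 1227 and 1080 CPM at day 2, 633, 623 and 667 CPM at day 10, 448 and 194 CPM in Epcam-positive cells, 441 and 415 CPM in Epcam-negative cells, and 35.5 and 67.0 CPM in fetal TEC. Day 2 and MEF overlapped, and day 10 lay below day 2 and, by a margin of about 1 CPM, below the lower MEF library. In the falling order from day 2 through MEF, day 10 and both day 12 fractions to fetal TEC, day 2 and MEF, MEF and day 10, and the sorted fractions did not differ beyond their spread. The change at day 10 against day 2 was -0.85 ± 0.40 (adjusted p = 0.225, edgeR), and -0.88 (adjusted p = 0.00765) in the fit of 10 libraries. So at day 10 Cdkn1a stood above its day 2 level while Mdm2 and Ccng1 stood below theirs, each without overlap of libraries. Of the 4 genes with a half-site in the printed stretches, Cdkn1a and Cdkn2d had higher and Mdm2 and Ccng1 lower mean levels at day 10 than at day 2. Only the change of Mdm2 was called in the fit of 13 libraries. That of Cdkn2d was small (0.32 ± 0.48, adjusted p = 0.791, edgeR) and was not called with 10 libraries (adjusted p = 0.439).

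**Figure D2:**
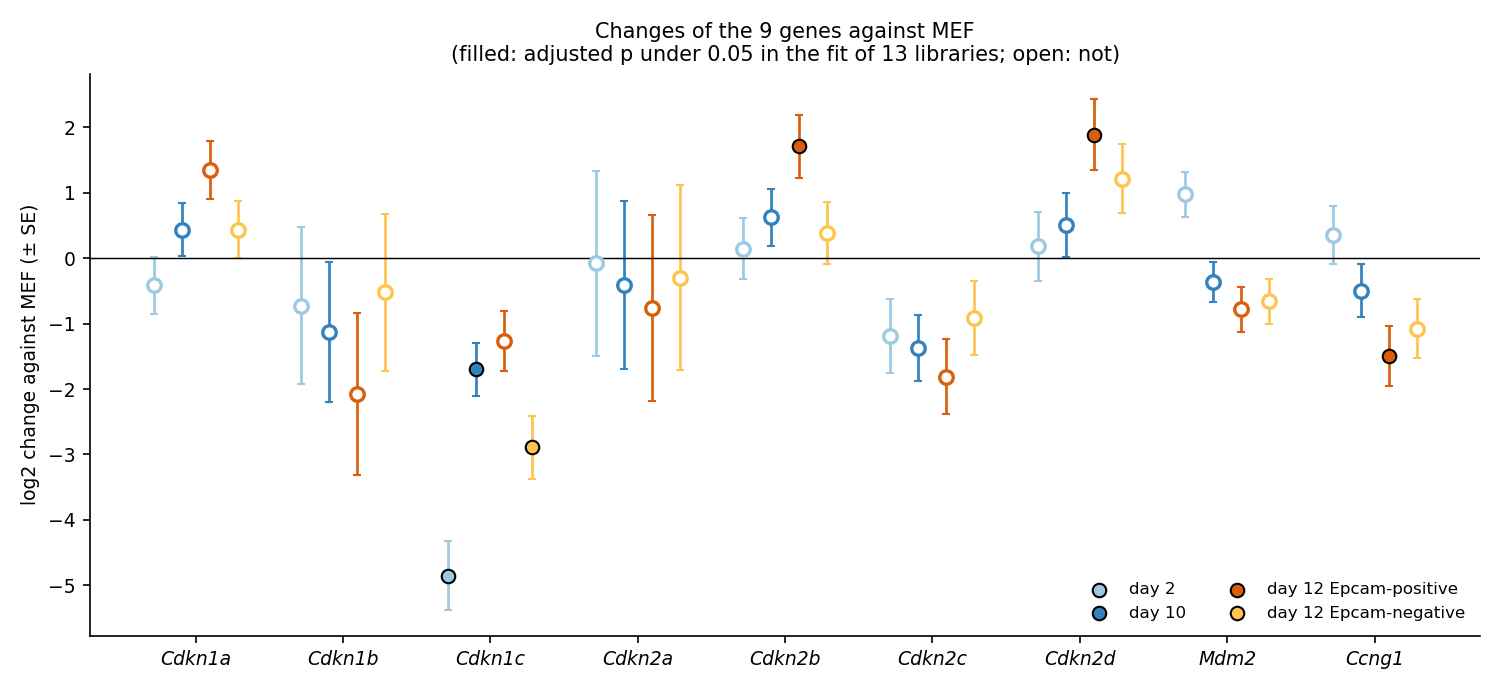
Log2 changes against MEF (± SE, edgeR fit of 13 libraries) of the 9 genes at day 2, day 10 and in both day 12 groups, filled where the adjusted p was under 0.05. Cdkn1c is called at day 2 (-4.85), day 10 (-1.70) and in Epcam-negative cells (-2.89), and Cdkn2b (1.71), Cdkn2d (1.89) and Ccng1 (-1.49) in Epcam-positive cells.

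Compared per kilobase of exon, Ccng1 and Cdkn1a had the highest levels of the 9 in MEF, with 257 ± 95.1 and 223 ± 44.2 CPM per kb (SD, n = 2), and their ranges cannot be separated. Mdm2 followed with 68.75 ± 26.3 CPM per kb, Cdkn1c with 35.05 ± 7.39 and Cdkn2d was lowest with 4.19 ± 2.18. At day 10, Cdkn1a led with 302 ± 2.65 CPM per kb, above Ccng1 with 182.5 ± 6.53 (SD, n = 3), and Cdkn2c was lowest with 3.34 ± 0.09. In fetal TEC, Cdkn1c led with 191 ± 12.9 CPM per kb, followed by Cdkn2d with 48.15 ± 18.4, while Cdkn1a had 36.9 ± 8.2 (n = 2), and the ranges of Cdkn2d and Cdkn1a cannot be separated. Levels per length in fetal TEC rest on libraries short of reads from long transcripts.

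At day 12, Epcam-negative cells had 1 of 9 genes called against MEF, where 11.9% of all tested genes were called (7.37% higher and 4.53% lower). Cdkn1c fell to 9.175 ± 0.03 CPM in Epcam-negative cells, against 68.1 ± 14.35 CPM in MEF (-2.89 ± 0.48, adjusted p = 0.00459, edgeR), a call lost without either Epcam-negative library (adjusted p = 0.055 and 0.0559). With 10 libraries 6 of 9 were called, beside 53.2% of all genes (28.6% higher and 24.6% lower): Cdkn1a (0.47), Cdkn2b (0.42) and Cdkn2d (1.25) higher, and Cdkn1c (-2.86), Cdkn2c (-0.885) and Ccng1 (-1.05) lower. This comparison lies within the side of libraries with Xist.

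Epcam-positive cells had 3 of 9 genes called against MEF (20.3% of all genes, 15.9% higher and 4.4% lower), Cdkn2b (1.71 ± 0.48, adjusted p = 0.0352) and Cdkn2d (1.89 ± 0.54, adjusted p = 0.0369) higher and Ccng1 (-1.49 ± 0.46, adjusted p = 0.045) lower. Each mean joins 2 unlike libraries, and each call was lost in 9 or 10 of the 13 fits with a library left out, including the fits without Epcam-positive replicate 2 (log2 changes of 0.51 for Cdkn2b and 0.95 for Cdkn2d there). Cdkn1a, at 1.35 ± 0.44, missed the threshold (adjusted p = 0.056). With replicate 1 as the lone Epcam-positive library, in the fit of 10, 6 of 9 were called, beside 40.3% of all genes (22.9% higher and 17.4% lower): Cdkn2b higher (0.50), and Cdkn1b (-1.105), Cdkn1c (-2.35), Cdkn2c (-1.17), Mdm2 (-0.85) and Ccng1 (-1.02) lower. Its spread is then taken from the other groups.

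Between the sorted fractions 0 of 9 genes were called, in the fit of 13 libraries (0.259% of all genes, 0.241% higher and 0.0176% lower) as in the fit of 10 (10.1%, 7.33% higher and 2.8% lower). This comparison crosses the sides given above, with Xist in Epcam-negative and Y-linked genes in Epcam-positive libraries. The sex of the source and the Epcam sort therefore cannot be told apart in it. In the fit of 13, 3261 of 17004 genes had an unadjusted p under 0.05 and the DESeq2 Wald test called 1 of 9. That gene was Cdkn1c, with 28.4 ± 21.2 CPM in Epcam-positive cells and 9.175 ± 0.03 CPM in Epcam-negative cells (1.63 ± 0.46, adjusted p = 0.187 in edgeR and 0.0152 in DESeq2). Epcam-positive replicate 1 lay near the Epcam-negative libraries for Cdkn1a (792 CPM, against 813 and 827 CPM), Cdkn2b, Cdkn2d and Ccng1, and replicate 2 lay far from them. With replicate 1 left out, so that replicate 2 stood alone and its spread was taken from other groups, 8 of 9 genes were called. Both Epcam-positive libraries lay above both Epcam-negative ones for Cdkn1c and Cdkn2b. They lay below both for Mdm2, Cdkn1b and Cdkn2c, with no edgeR call in the fit of 13 libraries. The share of all genes without such overlap was not counted.

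Fetal TEC differed from MEF in 8 of 9 genes, where 57.8% of all tested genes were called (31.5% higher and 26.3% lower). Cdkn1c rose to 370.1 ± 25.1 CPM in fetal TEC, against 68.1 ± 14.35 CPM in MEF (2.44 ± 0.47, adjusted p = 0.00301, edgeR), and Cdkn2d rose to 71.0 ± 27.2 CPM, against 6.185 ± 3.215 CPM in MEF (3.52 ± 0.58, adjusted p = 0.00143). Lower in fetal TEC were Ccng1 (-4.14 ± 0.51, adjusted p = 0.000326), Cdkn1a (-2.59 ± 0.46, adjusted p = 0.00205), Cdkn2c (-2.825 ± 0.60, adjusted p = 0.00458), Cdkn1b (-3.90 ± 1.345, adjusted p = 0.0319) and Mdm2 (-1.25 ± 0.35, adjusted p = 0.0139). Cdkn2a was at 0 counts in fetal TEC and at least 1068-fold lower than in MEF (27.97 CPM; floor of 3 counts over the group, counting error only; adjusted p = 0.00495). Cdkn2b was not called (-0.60 ± 0.47, adjusted p = 0.29). Thymocyte genes summed to 1480 and 662 CPM in fetal TEC, against 37.3 and 81.8 CPM in MEF, in the order of the Cdkn2d levels of the 2 fetal libraries, and their part in it was not tested. Both fetal TEC libraries lack the rise of level with length seen in MEF. Of the 6 genes lower in fetal TEC, 5 are the longest of the 9 (2686 to 4552 exon bases) and the other, Cdkn2a, is the shortest, while the 2 that were higher have 1942 and 1475 exon bases. The part of length in these calls was not tested. The call of Cdkn1b was lost without any library of fetal TEC or MEF (adjusted p 0.0604 to 0.156), and that of Mdm2 without fetal TEC replicate 1 or MEF replicate 2 (adjusted p 0.0746 to 0.106).

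Day 10 iTEC differed from fetal TEC in 8 of 9 genes (59.3% of all tested genes, 27.6% higher and 31.7% lower). Higher at day 10 were Cdkn1a (820.3 ± 7.19 CPM, against 100.3 ± 22.3 CPM in fetal TEC; 3.03 ± 0.45, adjusted p = 0.000731, edgeR), Ccng1 (3.645 ± 0.48, adjusted p = 0.000398) and Cdkn2a, at least 805-fold higher. Lower at day 10 were Cdkn1c (20.98 ± 1.83 CPM, against 370.1 ± 25.1 CPM in fetal TEC; -4.14 ± 0.43, adjusted p = 0.00012) and Cdkn2d (-3.01 ± 0.49, adjusted p = 0.00108). The calls of Cdkn2b (1.23), Cdkn2c (1.45) and Mdm2 (0.89), all higher at day 10, were lost in 11, 10 and 8 of the 13 fits with a library left out. Cdkn1b was not called (2.77 ± 1.23, adjusted p = 0.0753, edgeR). With DESeq2 size factors 6 of 9 genes were called, without Cdkn2b and Mdm2. The bound for Cdkn2a rests on a floor of 3 counts over the fetal group, counting error only. Both fetal TEC libraries lack the rise of level with length seen at day 10. They also held thymocyte genes (1480 and 662 CPM, against 1.81 to 2.26 CPM at day 10). The parts of length and of thymocytes in these differences were not tested.

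Of 25 other p53 targets, 0 were called higher and 2 lower at day 2 against MEF, 2 higher and 3 lower at day 10 against MEF, and 2 higher and 2 lower at day 10 against day 2. Over all tested genes 5.52%, 16% and 12.6% were called in these comparisons, in that order. Their median log2 changes were 0.20, -0.13 and -0.17, against 0, 0 and 0.02 over all tested genes. Gadd45a, a growth arrest gene, fell to 8.47 and 6.885 CPM at day 2, against 36.8 and 51.55 CPM in MEF (-2.525 ± 0.51, adjusted p = 0.0195, edgeR), and so did the antioxidant gene Sesn1 (-1.87 ± 0.35, adjusted p = 0.0136). At day 10 Sesn1 stood higher than at day 2 (2.08 ± 0.34, adjusted p = 0.00351) and Gadd45a was lower than in MEF (-2.26 ± 0.44, adjusted p = 0.00766). Perp, a p53 target that is also a desmosome protein of stratified epithelia and a target of p63, rose to 203 to 224 CPM at day 10, against 4.1 and 4.63 CPM at day 2 (5.60 ± 0.51, adjusted p = 0.000209). Fas, a death receptor, was higher at day 10 than in MEF (1.32 ± 0.30, adjusted p = 0.015) and Sesn2 lower (-1.555 ± 0.31, adjusted p = 0.00883). In the fit of 10 libraries 6 rose and 4 fell at day 2 against MEF, 6 rose and 10 fell at day 10 against MEF, and 7 rose and 9 fell at day 10 against day 2. Over all genes that fit called 39.5%, 56.6% and 51.4%, in that order.

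Trp53, the gene of p53, had 96.4 and 37.8 CPM in MEF, 131 and 139.7 CPM at day 2, 45.6, 41.9 and 42.7 CPM at day 10, 53.4 and 122 CPM in Epcam-positive cells, 47.1 and 47.0 CPM in Epcam-negative cells, and 246 and 265 CPM in fetal TEC. It was highest among the cultures at day 2, like Mdm2. It was lower at day 10 than at day 2 (-1.64 ± 0.41, adjusted p = 0.029, edgeR), and its change at day 2 against MEF was 1.01 ± 0.46 (adjusted p = 0.299; 0.0427 in the fit of 10 libraries). Of the 12 genes of the p53 family and its regulators, 0 were called against MEF at day 2 or day 10 in the fit of 13 libraries, while 2 rose and 1 fell at day 2 and 1 rose and 5 fell at day 10 in the fit of 10. The shares over all genes were 5.52% and 16% in the fit of 13, and 39.5% and 56.6% in the fit of 10. Among 15 regulators of the Ink4 and Arf genes, Tbx2, a T-box repressor of Cdkn2a and Cdkn1a in mouse cells, rose to 114 and 112 CPM at day 2 and 412.5 to 420.0 CPM at day 10, against 4.19 and 2.63 CPM in MEF (5.05 ± 0.34, adjusted p = 0.000116, and 6.93 ± 0.37, adjusted p = 2.05e-05). With it, 3 of the 15 rose and 2 fell at day 10 against MEF, beside 9.42% and 6.58% of all genes. Among those that fell was Ets2, an activator of p16Ink4a (-1.49 ± 0.21, adjusted p = 0.00136, edgeR). Of 7 regulators of Cip/Kip genes, Klf4, an activator of Cdkn1a, rose at day 10 against MEF (2.83 ± 0.48, adjusted p = 0.00402) and Myc, a repressor of Cdkn1a and Cdkn2b, fell (-2.17 ± 0.34, adjusted p = 0.00238).

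**Figure D3:**
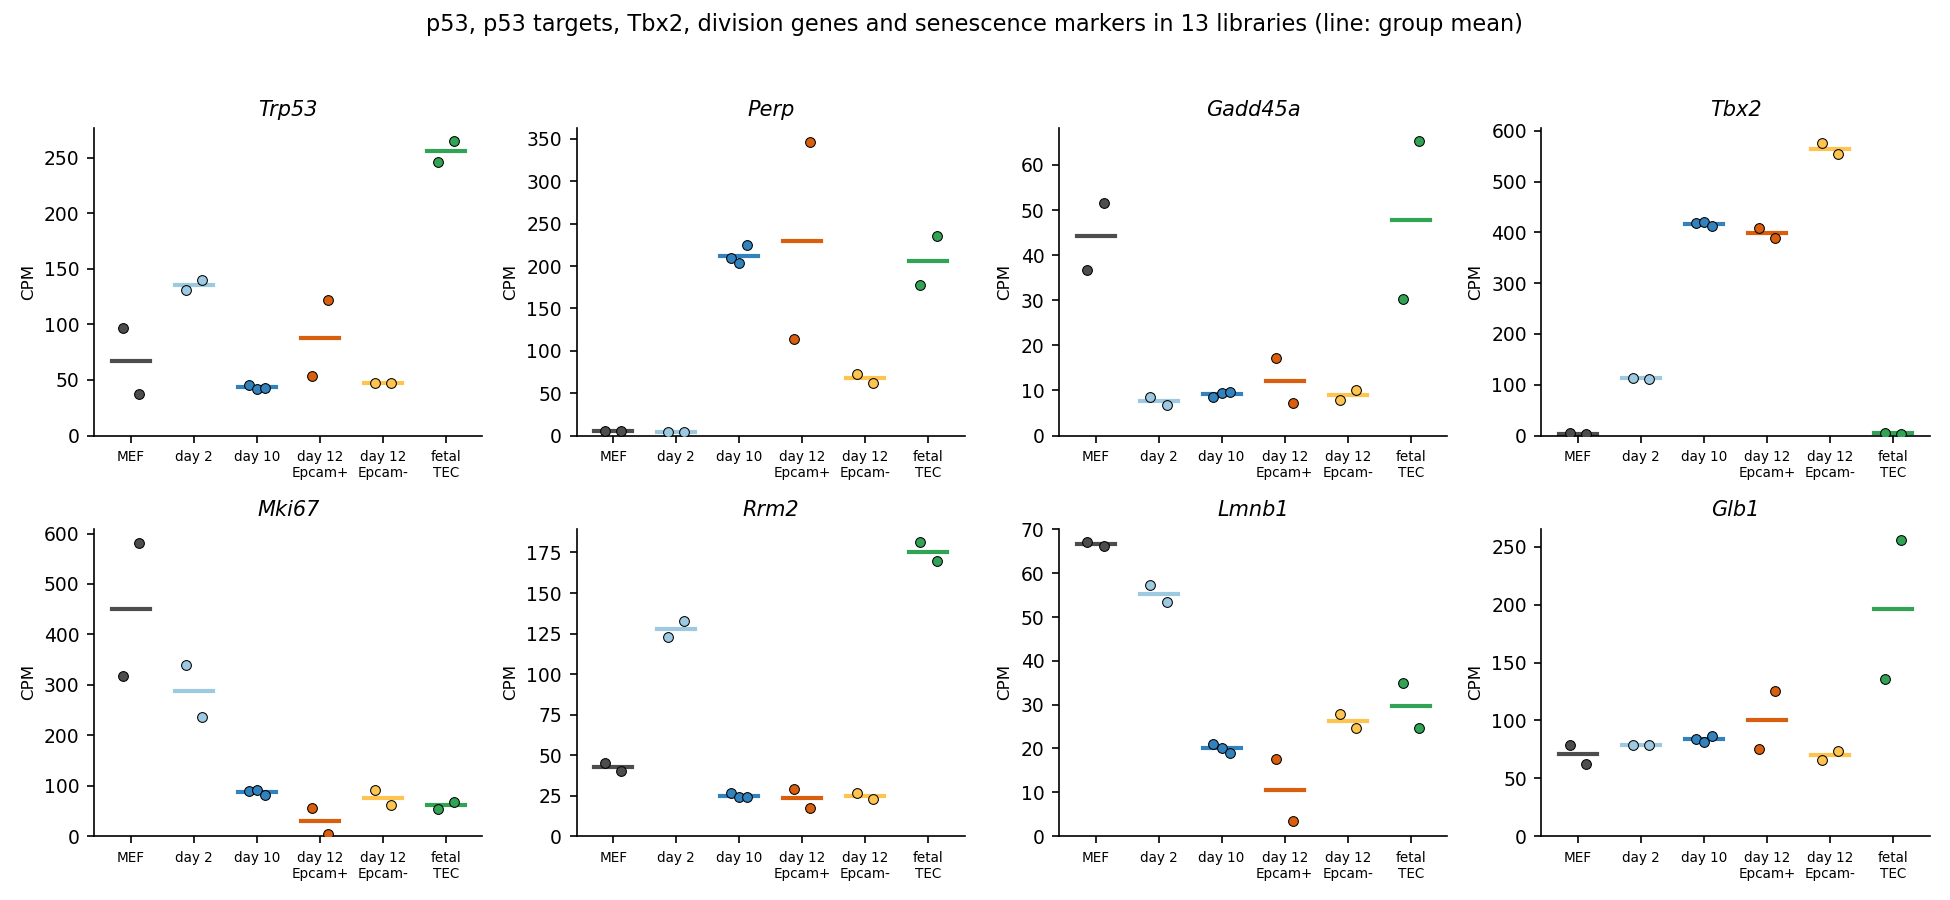
Levels in CPM on linear axes from 0 of Trp53, its targets Perp and Gadd45a, Tbx2, the division genes Mki67 and Rrm2, and the senescence markers Lmnb1 and Glb1, 1 point per library and a line at the group mean. Rrm2 is near 128 CPM at day 2, above all other cultured groups, Lmnb1 near 20.03 CPM at day 10 against 66.6 CPM in MEF, and Glb1 libraries of day 10 (81.0 to 86.8 CPM) lie just above those of day 2 (78.5 and 79.15 CPM).

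Genes of division were lower at day 10 than at day 2. Of 24 proliferation genes, 1 was called higher and 0 lower at day 2 against MEF, with a median log2 change of 0.71 (2.87% higher and 2.65% lower over all genes), and the called gene was Rrm2, a subunit of ribonucleotide reductase (128 CPM at day 2 against 42.6 CPM in MEF; 1.59 ± 0.29, adjusted p = 0.0131, edgeR). At day 10 against MEF 0 were higher and 8 lower (9.42% and 6.58% over all genes), with a median of -1.43, led by Cdca8 (-1.61 ± 0.23, adjusted p = 0.0017) and Birc5 (-1.485 ± 0.26, adjusted p = 0.00477), 2 proteins of the chromosomal passenger complex. Against day 2, 15 of 24 fell at day 10 (median -2.12; 4.41% lower over all genes), Rrm2 (-2.355 ± 0.26, adjusted p = 0.000533) and the helicase subunit Mcm6 (-2.115 ± 0.25, adjusted p = 0.000693) among them. In the fit of 10 libraries 19 rose and 0 fell at day 2 against MEF, and 24 of 24 fell at day 10 against MEF and against day 2. Over all genes that fit called 20.3% higher and 19.2% lower at day 2. At day 10 it called 27.3% lower against MEF and 24.2% lower against day 2. Mki67, the gene of the Ki-67 antigen, had 318 and 581 CPM in MEF, 339 and 235 CPM at day 2, 88.9, 91.6 and 80.65 CPM at day 10, 55.3 and 4.62 CPM in Epcam-positive cells, 90.8 and 61.1 CPM in Epcam-negative cells, and 54.6 and 68.2 CPM in fetal TEC. Its change at day 10 against MEF was -2.37 ± 0.74 (adjusted p = 0.0566; 0.000278 in the fit of 10 libraries). In fetal TEC, 13 of the 24 were higher and 1 lower than in MEF, beside 31.5% and 26.3% of all genes. The lower one was Mki67 (-2.87 ± 0.87, adjusted p = 0.019, edgeR). Fetal TEC and Epcam-positive replicate 2 are the libraries short of reads from long transcripts. The part of length in their Mki67 levels was not tested.

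The partners that the inhibitors bind did not move as a block. Of 12 cyclins and CDKs, 1 rose at day 2 against MEF, Ccne1, the cyclin that activates CDK2 at the start of replication (1.70 ± 0.40, adjusted p = 0.0382, edgeR), and at day 10 against MEF 2 rose and 4 fell. Over all genes 2.87% rose and 2.65% fell at day 2, and 9.42% rose and 6.58% fell at day 10. The 4 that fell were Ccna2 (-1.88 ± 0.32, adjusted p = 0.00388), Cdk1 (-1.26 ± 0.24, adjusted p = 0.00757), Ccnb1 (-1.85 ± 0.42, adjusted p = 0.0162) and Ccne1 (-1.38 ± 0.35, adjusted p = 0.0266), genes of replication and mitosis. The 2 that rose were Ccnd1 (0.97 ± 0.26, adjusted p = 0.0309) and Ccnd2, cyclins D1 and D2, which pair with CDK4 and CDK6 and were named here after their values were seen. Ccnd2 had 2746, 2665 and 2638 CPM at day 10, against 1302 and 1473 CPM in MEF. Of 11 Rb and E2F genes, 1 rose at day 2 (E2f7, 2.03 ± 0.43, adjusted p = 0.0257) and 1 at day 10 (E2f6, 0.83 ± 0.24, adjusted p = 0.0439), both of them repressor E2Fs, with 0 called lower. In the fit of 10 libraries 3 rose and 5 fell at day 10 against MEF, beside 29.4% and 27.3% of all genes.

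**Figure D4:**
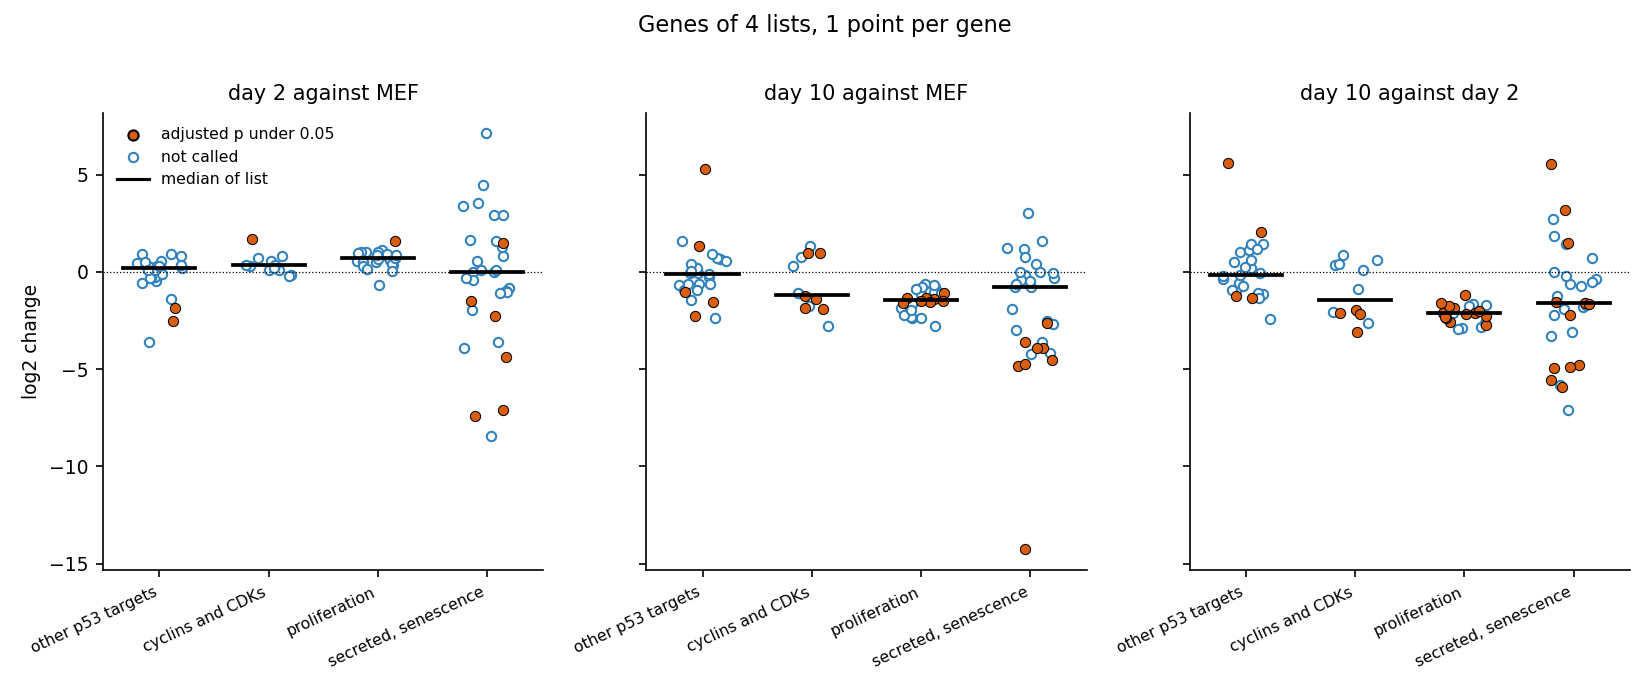
Log2 changes of the genes of 4 lists, 1 point per gene and a line at the median, at day 2 against MEF, day 10 against MEF and day 10 against day 2, filled where called by edgeR in the fit of 13 libraries. The proliferation genes have medians of 0.71, -1.43 and -2.12, the secreted genes spread over both directions, and fitted values of genes at 0 in a group (the lowest point) depend on the prior count.

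Signs of senescence were mixed. Of 31 secreted genes of the senescence phenotype, 1 was called higher and 5 lower at day 2 against MEF, 0 higher and 8 lower at day 10 against MEF, and 3 higher and 9 lower at day 10 against day 2, with medians of -0.02, -0.77 and -1.58. The shares called over all genes were 5.52%, 16% and 12.6%. The chemokine gene Ccl2 had 5.56, 4.997 and 5.51 CPM at day 10, against 237.6 and 274 CPM at day 2 (-5.58 ± 0.84, adjusted p = 0.00258, edgeR), and Ccl7 (-4.865 ± 0.63, adjusted p = 0.00112) and Cxcl5 (-4.80 ± 0.70, adjusted p = 0.00218) fell with it. Igfbp3, which binds insulin-like growth factors, went the other way (569 to 677 CPM at day 10, against 12.9 and 13.8 CPM at day 2; 5.53 ± 0.59, adjusted p = 0.00044). In MEF the mean levels were 33.5 CPM for Ccl2 and 272.9 CPM for Igfbp3. Day 2 thus lay above MEF for Ccl2 and below it for Igfbp3. Igfbp4 was lower at day 10 than in MEF (-3.91 ± 0.32, adjusted p = 8.66e-05, edgeR). The fit of 10 libraries called 5 higher and 17 lower at day 10 against MEF, beside 29.4% and 27.3% of all genes. In Epcam-negative cells 0 were higher and 9 lower than in MEF (7.37% and 4.53% over all genes), and in Epcam-positive cells 0 and 5 (15.9% and 4.4%). Between the fractions 1 was higher in Epcam-positive cells, Ccl7 (4.98 ± 0.75, adjusted p = 0.0453, edgeR), beside 0.241% of all genes. With 10 libraries, where replicate 1 is the lone Epcam-positive library, 15 of the 31 were higher in Epcam-positive cells and 0 lower, beside 7.33% and 2.8% of all genes. Several of these genes are also made by macrophages, whose summed levels in MEF and Epcam-positive cells are given above.

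Of 8 nuclear and lysosomal genes tested, 0 were called at day 2 against MEF (5.52% of all genes), and 0 higher and 3 lower at day 10 (9.42% and 6.58%). Lmnb1, the nuclear lamin that is lost in senescent cells and is also low in cells that do not divide, had 67.0 and 66.25 CPM in MEF, 57.2 and 53.4 CPM at day 2, 20.95, 20.1 and 19.01 CPM at day 10, 17.6 and 3.52 CPM in Epcam-positive cells, 28.0 and 24.7 CPM in Epcam-negative cells, and 34.9 and 24.6 CPM in fetal TEC. It was lower at day 10 than in MEF (-1.73 ± 0.51, adjusted p = 0.0454, edgeR; -1.70 and adjusted p = 6.99e-06 in the fit of 10 libraries). The chromatin proteins Hmgb2 (-2.10 ± 0.38, adjusted p = 0.00532) and Hmgb1 (-1.27 ± 0.29, adjusted p = 0.0158) were lower too. Glb1, the lysosomal beta-galactosidase that the usual stain for senescence detects, had 79.1 and 62.3 CPM in MEF, 78.5 and 79.15 CPM at day 2 and 84.3, 81.0 and 86.8 CPM at day 10, and its change at day 10 against MEF was 0.25 ± 0.32 (adjusted p = 0.689; 0.0837 in the fit of 10 libraries). Thus Cdkn2a and Glb1 were not called at day 10, Lmnb1 was lower, and Cdkn1a was called higher with 10 libraries but not with 13.

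The genes whose log2 CPM followed each member most closely over the 13 libraries, among 13505 searched, are given as a description, since libraries of a group and the 3 libraries short of long transcripts weigh on every such value. For Cdkn1a they were Trp53cor1 and Tmem126b (Pearson's r = 0.983 for both). Trp53cor1, the lincRNA-p21 gene, lies on the opposite strand 11796 bases from Cdkn1a (chromosome 17, 29057430 to 29079179). It had 3.55 and 3.27 CPM in MEF, 1.94 and 2.0 CPM at day 2, 4.1, 4.54 and 3.75 CPM at day 10, 3.65 and 13.3 CPM in Epcam-positive cells, 4.08 and 4.07 CPM in Epcam-negative cells, and 0.0613 and 0.101 CPM in fetal TEC. For Cdkn1b they were Nsun6 (0.996) and Hmgxb4 (0.994), for Cdkn1c Slc7a7 (0.975) and Blnk (0.965), and for Cdkn2a Clip2 (0.998) and Zswim8 (0.997). For Cdkn2b they were Bsg (0.98) and Tmem248 (0.977), for Cdkn2c Sox12 (0.969) and Zmynd8 (0.961), and for Cdkn2d Tmco6 (0.985) and Zdhhc24 (0.984). Mdm2 was followed by Thoc1 (0.955) and Trmt10a (0.948), and Ccng1 by Ptpn12 (0.993) and Fam198b (0.99).

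**Figure D5:**
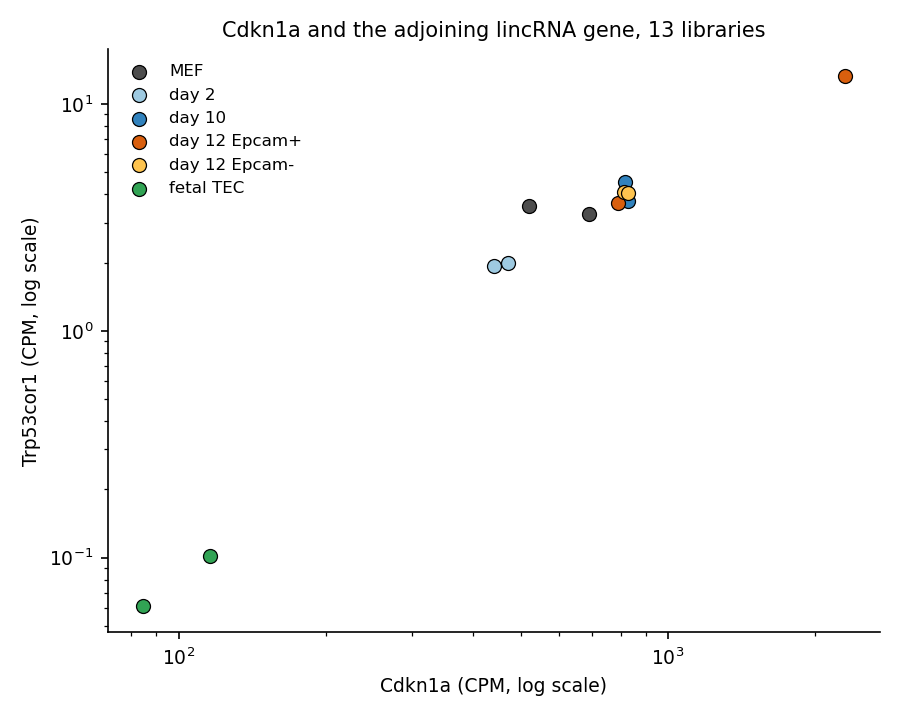
Cdkn1a against the adjoining Trp53cor1, both in CPM on log axes, 1 point per library. Fetal TEC lie lowest (84.5 and 116 CPM of Cdkn1a), day 2 below MEF, and Epcam-positive replicate 2 highest on both axes (2296 and 13.3 CPM).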

How the data were processed

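The deposited table holds raw read counts per gene as made by the authors, with no normalization. FastQC, Trimmomatic, HISAT2, SAMtools, StringTie, DESeq2 and the mm10 build are named per the submitters' processing notes, without roles. Strand use and the handling of shared reads are not given in the sources used here. Table columns named for the absence of Cre were taken as MEF. Counts were filtered with filterByExpr, scaled by TMM and fitted for all 13 libraries with edgeR 4.0.16 (R 4.3.3; robust quasi-likelihood test, Benjamini-Hochberg adjustment). The pipeline was tested on simulated data. Alternatives were DESeq2 1.42.0 (Wald test, size factors), library size alone, no filter, the 10 libraries with a like length profile, the compared groups alone, a replicate block and each library left out. Replicate numbers were not used as pairs. All 9 genes are named, and of each list up to 4 called genes with the smallest p, with Trp53, Mki67, Lmnb1 and Glb1 always. The members and lists were chosen with earlier results of these data known. Positions and lengths come from GENCODE M21 and promoters from RefSeq GRCm38.p6. The exon length of a gene joins the exons of all its annotated transcripts. Figures used matplotlib 3.10.9 in Python 3.11.15.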

Additional observations from a re-analysis of the deposited data

Results flagged for a closer look

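For Cdkn1c, the gene of p57, the changes against MEF at day 10 (-1.70) and day 2 (-4.85) differed by a test of the difference itself. Because MEF are shared, that difference is the day 10 minus day 2 change, 3.155 on the log2 scale (adjusted p = 0.00249, edgeR with Benjamini-Hochberg adjustment), with 20.98 ± 1.83 CPM at day 10 (n = 3) and 2.355 ± 0.13 CPM at day 2 (n = 2).

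For Mdm2, the ligase of p53, the changes against MEF at day 10 (-0.36) and day 2 (0.98) differed in the same test by -1.339 (adjusted p = 0.0199, edgeR), with 168 ± 3.86 CPM at day 10 and 425.5 ± 40.2 CPM at day 2. The Mdm2 difference missed the threshold without any library of day 10 or day 2.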

How the results depend on the processing

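The number of genes called differed between alternatives. With the 10 libraries of like length profile, the DESeq2 Wald test, the compared groups alone and the replicate block, in that order, day 2 against MEF called 6438, 2321, 2949 and 391 genes (938 in the fit of 13 libraries), and with each library left out 299 to 3718. Day 10 against MEF called 9231, 4311, 7959 and 1040 (2720; 1028 to 6650), day 10 against day 2 called 8373, 3673, 10927 and 831 (2151; 564 to 5792), and Epcam-negative cells against MEF 8671, 3771, 4996 and 915 (2025; 719 to 5897). Epcam-positive cells against MEF called 6572, 6284, 0 and 1036 (3455; 669 to 10819), and against Epcam-negative cells 1651, 1760, 0 and 1 (44; 0 to 9545), with 7 by library size alone and 24 without a filter. Fetal TEC against MEF (9831; 5507 to 12611) and day 10 against fetal TEC (10085; 7877 to 12919) have no value with 10 libraries. Of the 9 members, day 2 against MEF called 4 with 10 libraries and 2 with the compared groups alone (1; 1 to 2). Day 10 against MEF called 5, 2 by DESeq2, 4 with the groups alone and 0 with the block (1; 0 to 3), and day 10 against day 2 called 5, 8 with the groups alone and 1 with the block (2; 1 to 5). Epcam-negative cells against MEF called 6 with 10 libraries (1; 0 to 4), Epcam-positive cells against MEF 6, 5 by DESeq2, and 0 with the groups alone or the block (3; 0 to 8), the 2 fractions 1 by DESeq2 (0; 0 to 8), day 10 against fetal TEC 5 with the block (8; 5 to 9), and fetal TEC against MEF 6 to 9 with a library left out (8). The replicate numbers shared only a number (correlations of deviations -0.215 to 0.116). Signs turned for Cdkn2a at day 2 against MEF by library size alone (0.0166) and the block (0.0126), and with 1 library left out for Cdkn2a (-0.49 to 0.50) and Cdkn2d (-0.27 to 0.85) there, Cdkn2a (-0.82 to 0.14) and Mdm2 (-0.73 to 0.0901) at day 10 against MEF, and Cdkn2a in Epcam-negative cells against MEF (-0.71 to 0.25). Cdkn2a in Epcam-positive cells against MEF was 0.23 with 10 libraries (-7.75 to 0.24 with 1 left out). Between the fractions, 10 libraries gave -0.0881 for Cdkn1a (-0.0509 to 1.48 with 1 left out), 0.50 for Cdkn2a (-7.45 to 0.53), -0.30 for Cdkn2d (-0.27 to 1.24) and 0.0265 for Ccng1 (-1.14 to 0.0641). Of 1494 member results under alternatives, 1306 kept direction and side of the threshold, 95 lost a call, 75 gained one and 18 reversed. By library size alone the share of calls that were higher was 69.5% at day 10 against MEF (58.9% with TMM), 75.7% in Epcam-negative cells against MEF (61.9%) and 71.4% between the fractions (93.2%), with shifts of 0.118, 0.227 and -0.242 (log2) in the median over all genes. For fetal TEC against MEF and day 10 against fetal TEC that median shifted by -0.144 and 0.268 by library size alone, and by 0.138 and -0.153 with DESeq2 size factors. The cause of these changes was not tested.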

Other observations

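Other genes of the imprinted region of Cdkn1c on chromosome 7 were looked up after the Cdkn1c values were seen. H19, a non-coding RNA 880.0 kb from Cdkn1c, had 3055 and 2176 CPM in MEF, 753 and 557 CPM at day 2, and 83.8, 70.7 and 80.6 CPM at day 10, and was lower at day 10 than in MEF (-5.06 ± 1.06, adjusted p = 0.0112, edgeR). Igf2, a growth factor gene 792 kb away, had 1198 and 1386 CPM in MEF, 495 and 494 CPM at day 2, and 23.2, 18.8 and 50.1 CPM at day 10, and was also lower at day 10 than in MEF (-5.39 ± 1.21, adjusted p = 0.0156). Kcnq1ot1, the non-coding RNA that silences Cdkn1c in cis on the paternal allele, had 31.8 and 69.0 CPM in MEF, 19.4 and 14.8 CPM at day 2, and 52.5, 60.7 and 32.8 CPM at day 10, and was higher at day 10 than at day 2 (1.51 ± 0.42, adjusted p = 0.0422). So H19 and Igf2 stood lowest at day 10 among these 3 groups, while Cdkn1c stood lowest at day 2.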
